A study of Mus musculus with 8 samples.

Results

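The genes described here code for the constitutive proteasome, the protease that every cell keeps, in sorted mouse Paneth cells (PCs) after tumor necrosis factor (TNF). A gene was a member when it was annotated as protein coding and its symbol began with Psma, Psmb, Psmc, Psmd, Psme or Psmg, with the immunoproteasome genes Psmb8, Psmb9 and Psmb10 left out. The rule found 47 of the 55414 genes in the table, and 44 of them were expressed well enough to be tested among 10707 tested genes. Of the 47 members, 45 are subunits, activators or assembly chaperones of the proteasome, while Psmc3ip and Psme3ip1 carry a matching symbol only because they are named as partners of a subunit.

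The proteasome degrades proteins tagged with ubiquitin. Its 20S core is a barrel of stacked rings. The outer alpha rings (Psma genes) gate the entry and the inner beta rings (Psmb genes) hold the proteolytic sites on Psmb5, Psmb6 and Psmb7. The 19S cap binds the ubiquitin chain, removes it and threads the substrate into the core. It consists of a base with ATPases (Psmc genes) and scaffold or receptor subunits, and of a lid (most Psmd genes). The activators PA28 (Psme1 and Psme2, or Psme3 alone) and PA200 (Psme4) can dock on the core in place of the cap. Interferon raises Psme1 and Psme2 together with Psmb8, Psmb9 and Psmb10, which replace Psmb5, Psmb6 and Psmb7 and change the peptides made for antigen presentation.

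Bulk RNA-seq was done on PCs collected by fluorescence-activated cell sorting from the small intestine of mice, in 8 libraries. Mice of 1 group drank Milli-Q water (4 libraries, "water") and mice of the other drank water with 25 mM ZnSO4 (4 libraries, "zinc"), in both cases for 7 days. All mice then received TNF, and cells were taken 3 h later, so no library shows the level without TNF. The study names C57BL/6J mice for its PC sorts and states that each sequenced sample came from an individual mouse, while the labels give no age and no batch. In such bulk samples fewer cells of a type and less RNA per cell cannot be told apart.

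The libraries held 10623658 to 15101627 counts, and the biological coefficient of variation over all genes was 0.269. The PC marker list summed to 394501 to 741872 CPM (counts-per-million, on TMM-scaled library sizes), with all 10 of its genes tested. The highest sums were those of water replicate 3 (741872) and water replicate 4 (579872), against at most 494985 elsewhere. Zinc replicate 3 stood apart, with correlations of 0.847 to 0.903 to the other libraries. In that library the mean log2 CPM of 20 TNF and NF-kB targets was 1.40, against 4.88 to 5.69 in the other 7, and that of 22 interferon targets was 2.03, against 3.94 to 4.67. Its summed enterocyte markers reached 570 CPM, against 89.6 to 181 in the others, with all 8 tested markers at their highest there and none of the 12 listed at 0. Water replicates 3 and 4 differed from the rest in another way, since their deviations from the gene means were negatively related to transcript length over all genes, with Spearman's rho of -0.33 and -0.34. Goblet cell markers summed to 5517 to 7600 CPM with water and 8699 to 11912 with zinc, and markers of immune and stromal cells to 47.6 to 102 and 32.5 to 42.2 CPM. Of the 15 immune and stromal markers only 3 were expressed well enough to be tested. Cd8a, Adgre1, Col1a1 and Col3a1 were at 0 in every library. The part of these differences in the results below was not tested, except where values without a library are given.

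The members held a small and similar share of the counts in every library. Together the 47 members held 0.151%, 0.154%, 0.130% and 0.147% of the counts in water replicates 1 to 4 and 0.136%, 0.163%, 0.121% and 0.143% in zinc replicates 1 to 4. The mean share of all counts was 0.146% ± 0.011 (SD, n = 4) with water and 0.141% ± 0.017 (SD, n = 4) with zinc, a difference smaller than either SD. Of counts without Defa genes it was 0.238% ± 0.0088 and 0.224% ± 0.020, a difference larger than the SD with water only. Of protein-coding counts without Defa, Lyz1 and Itln1 it was 0.379% ± 0.035 and 0.352% ± 0.019, a difference larger than the SD with zinc only. The smallest share was that of zinc replicate 3. Psma8, the alpha subunit of the testis, and Psmb11, the beta subunit of the thymus, had no count in any library. Psmc3ip, a meiotic recombination factor, had 24 counts over the 8 libraries and was not tested.

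Levels of different genes were compared per length, in counts per kilobase of length, scaled in each library to sum to the usual total of TPM (transcripts-per-million). With the length of the annotated canonical transcript, the median over subunits was 11.8 for the alpha ring (10.1 to 15.0 across libraries), 16.0 for the catalytic beta subunits (12.8 to 17.7) and 10.2 for the other beta subunits (8.61 to 13.4). It was 13.0 for the ATPases of the base (10.5 to 15.4), 17.1 for its other subunits (12.1 to 20.6), 13.6 for the lid (11.1 to 17.7) and 11.9 for the activators (7.45 to 14.4). On this scale the ranges overlapped between neighbours in the order, so the core, the cap and the activators were not ranked against each other. The assembly chaperones lay apart, at 2.98 for those of the core (2.62 to 3.64) and 2.06 for those of the base (1.33 to 2.97), below every library value of the other groups.

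The choice of length mattered for several members, because the current annotation gives them long transcript ends. Psmb1, for example, has a canonical transcript of 6002 bases around a coding sequence of 720 bases. Per kilobase of coding sequence, an alternative added after the values were seen, the medians were 20.7 for the alpha ring, 13.3 for the catalytic and 24.5 for the other beta subunits, 11.6 and 12.0 for the ATPases and other subunits of the base, 14.1 for the lid, 28.3 for the activators, and 3.18 and 4.48 for the chaperones of core and base. Across libraries the median of the 14 core genes together was 18.2 to 24.5 on this scale. That lay above the ATPases (9.57 to 13.8), the other base subunits (8.18 to 14.3) and the lid (11.1 to 16.2). The catalytic subunits alone, at 10.9 to 14.5, overlapped the cap. With the canonical transcript the core stood at 11.0 to 15.9, within reach of the cap, so the order of core and cap depended on the length. Both scales placed the chaperones lowest. On the coding scale the median over 10365 tested genes was 4.22, and the upper quartile was 11.4.

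Within subcomplexes the levels were uneven, although the proteins are built in with equal copy number. In the alpha ring, Psma7 was highest at 43.6 per kilobase of transcript and Psma3 lowest at 5.42. On the coding scale Psma7 was again highest at 32.8, but Psma5 was lowest at 9.63, with Psma3 at 15.1. Among the catalytic subunits Psmb6 stood at 30.4 and Psmb5 at 5.40, and on the coding scale at 26.6 and 6.92, so Psmb5, which carries the chymotrypsin-like site, was the lowest of the 3 on both scales, although with all exons joined Psmb7 was lowest at 3.56. Of the other beta subunits Psmb4 was highest at 28.3, and Psmb1 lowest at 5.31, but on the coding scale Psmb1 was the highest at 26.7 and Psmb3 the lowest at 11.0. Of short stretches of transcript, 34.9% for Psma5, 37% for Psmb3, 16.8% for Psma3 and 38.0% for Psmb5 also occur in other annotated genes. The share was 0% for Psma7, Psmb4, Psmb6 and Psmb7, and 0.42% for Psmb1. Counts of Psma5, Psmb3, Psma3 and Psmb5 may have lost or shared reads. The part of this in their low levels was not tested.

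In the cap the levels were closer together. Among the ATPases Psmc3 was highest at 23.8 per kilobase of transcript and Psmc1 lowest at 8.27, and on the coding scale the same 2 genes stood at 17.5 and 9.87. The scaffold subunits of the base, Psmd2 and Psmd1, stood at 19.4 and 9.34, with the ubiquitin receptor Psmd4 between them at 17.1. In the lid Psmd3 was highest at 29.8 and Psmd14, which cuts off the ubiquitin chain, lowest at 7.89, although on the coding scale Psmd6 was lowest at 10.4. Among the chaperones of the core Psmg4 stood at 3.81 and Psmg3 at 1.84, and among those of the base Psmd10 at 4.85 and Psmd5 at 1.57. On the coding scale Psmg2 was instead the highest of the core chaperones at 3.76 and Psmg1 the lowest at 1.62.

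The activators spanned the widest range, but this rested on Psme2b (168 counts), whose reads may come from Psme2. Psme2 was the highest at 63.3 per kilobase of transcript and Psme2b the lowest at 1.52, followed by Psme1 at 8.38, Psme4 at 11.9 and Psme3 at 15.4. On the coding scale Psme3, the activator of the nucleus, and Psme2 were nearly equal at 52.7 and 50.6, each above 94% of the tested genes. Psme1 stood at 28.3 and Psme4 at 8.38 on that scale. The Psme3 transcript has 4376 bases around a coding sequence of 762, and that of Psme2 has 965 around 717. The standing of Psme3 beside Psme2 therefore depended on the length used. The ratio of Psme2 to Psme1 on the coding scale, for proteins that share 1 ring, was 1.56 to 1.97 in the water libraries, 1.45, 1.54 and 1.99 in zinc replicates 1, 2 and 4, and 1.03 in zinc replicate 3. The plot of levels by subcomplex shows every tested member on the coding scale.

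**Figure D1:**
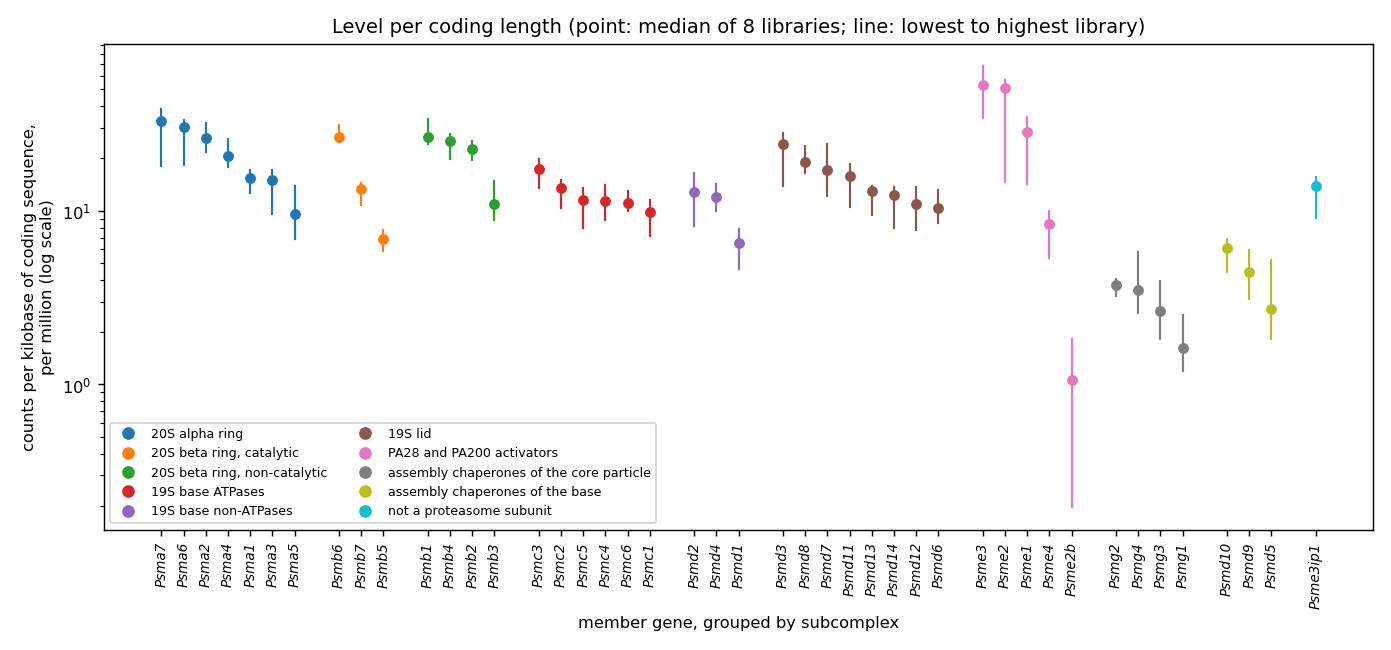
Level of each of the 44 tested members as counts per kilobase of coding sequence, scaled to the same sum in each library (log axis), grouped by subcomplex, with the median of 8 libraries as a point and the lowest to highest library as a line. Psme3 (52.7) and Psme2 (50.6) are highest, the assembly chaperones and Psme2b (1.06) lowest, and Psmb5 (6.92) lies below the other catalytic subunits. Per kilobase of transcript, not plotted, Psme3 stood at 15.4 and Psme2 at 63.3.

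Zinc was then compared with water to ask whether supplementation changes proteasome transcripts under TNF. No member passed the threshold of an adjusted p of 0.05 in edgeR's quasi-likelihood test, and neither did any other gene (0.0% of the 10707 tested, smallest adjusted p 0.485). Of the 44 tested members, 5 had an unadjusted p under 0.05, all lower with zinc, beside 10.2% of all genes in either direction and 3.78% in that direction. DESeq2 also gave 5 members with an unadjusted p under 0.05 and none past the adjusted threshold, and limma-voom gave 0 of both. The groups overlapped for every member, whereas 5.87% of all genes had groups that did not overlap. At this depth and spread a change of members with zinc was not detectable.

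The fitted direction was nevertheless shared by most members. The estimate was lower with zinc for 38 of 44 members, against 49.2% of all genes, and the median log2 fold change was -0.17, against 0.01 over all genes. The values ran from -0.60 for Psme2b to 0.36 for Psmd5, and Psme3ip1, which is no subunit, stood at -0.15. The members with a higher estimate were Psmb3, Psmd2, Psmg1, Psmg3, Psmd5 and Psmd9. Medians were -0.30 for the alpha ring, -0.21 for the catalytic and -0.25 for the other beta subunits. They were -0.14 for the ATPases, -0.04 for the other base subunits, -0.24 for the lid and -0.26 for the activators, Psme2b included. Those of the chaperones were -0.03 for the core and 0.16 for the base. Members are not independent replicates, and these counts rest on the same 8 libraries.

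**Figure D2:**
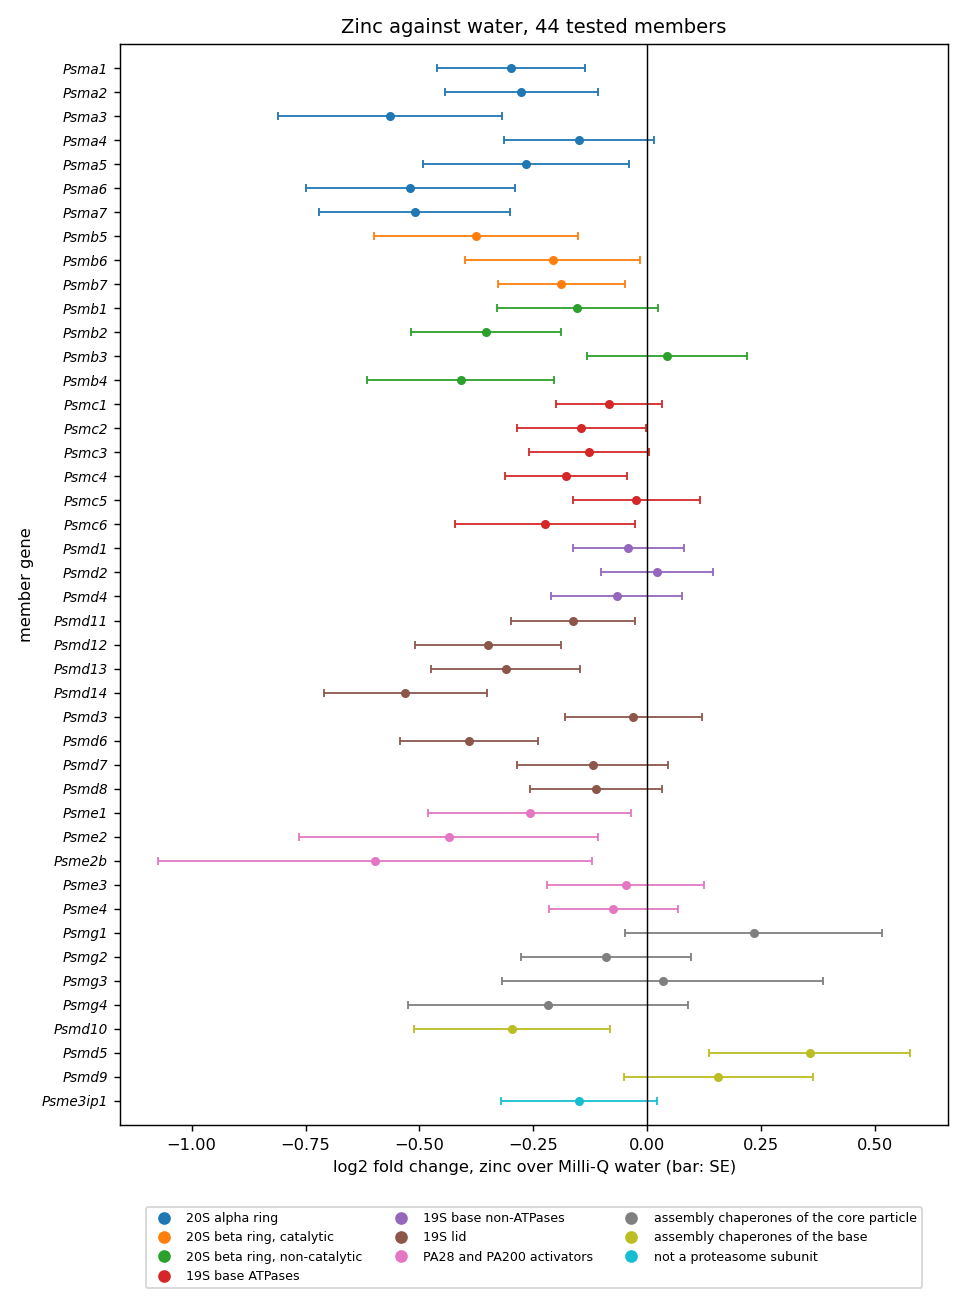
Log2 fold change, zinc over Milli-Q water, of the 44 tested members (x axis; bar, SE of the fit), coloured by subcomplex. Of the points, 38 lie left of 0 and none has an adjusted p under 0.05.

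The strength of this direction depended on which libraries were included. Without water replicates 3 and 4, 26 of 44 members were lower with zinc (47.9% of all genes) and the median was -0.03. Without zinc replicate 3, 33 of 44 were lower (49.4% of all genes) and the median was -0.13. Without those 3 libraries together, a set chosen after the values were seen, 12 of 44 were lower (48.0% of all genes) and the median was 0.04. Water replicates 3 and 4 ranked high and zinc replicate 3 low for most members, so leaving them out raises the estimates by construction. These values therefore do not show that the direction came from those libraries alone.

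In CPM on TMM-scaled library sizes, water replicates 3 and 4 were the high libraries of the 20S core. For all 14 tested core genes these were the top 2 of the 8 libraries, as they were for 10.4% of all genes, and the same held for 4 of 6 ATPases, 5 of 8 lid genes, 1 of 3 other base subunits and 1 of 5 activators. Over all 44 members the count was 27. By mean log2 CPM, 39 of 44 members were higher in water replicates 3 and 4 than in replicates 1 and 2, against 46.9% of all genes, and the median difference was 0.53 for the core, 0.26 for the ATPases and 0.30 for the lid, against -0.03 over all genes. These values depend on the TMM factors, which were lowest in water replicates 3 and 4 (0.758 and 0.893, against 0.986 to 1.14 elsewhere). Of all counts the core held 0.0476% and 0.0491% there, against 0.0371% to 0.0474% elsewhere. The 19S cap held its lowest share, 0.0544%, in water replicate 3. All members together held 0.130% in that library, above only zinc replicate 3.

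The catalytic subunits show the pattern gene by gene. Psmb5, with the chymotrypsin-like site, gave 10.6, 9.53, 18.6 and 15.4 CPM in water replicates 1 to 4 and 11.8, 8.97, 9.33 and 11.3 CPM in zinc replicates 1 to 4. Psmb6, with the caspase-like site, gave 33.5, 34.4, 59.0 and 52.1 CPM with water and 39.4, 39.3, 38.1 and 37.7 CPM with zinc. Psmb7, with the trypsin-like site, gave 21.1, 21.8, 27.8 and 28.3 CPM with water and 21.1, 20.9, 22.0 and 22.6 CPM with zinc. In each case all zinc libraries lay below water replicates 3 and 4, and water replicates 1 and 2 lay within or below the zinc range. The log2 fold changes were -0.38 (SE 0.22, adjusted p = 0.52) for Psmb5, -0.21 (SE 0.19, adjusted p = 0.65) for Psmb6 and -0.19 (SE 0.14, adjusted p = 0.59) for Psmb7. Without water replicates 3 and 4 they were 0.03, 0.18 and 0.01. Of the Psmb5 transcript 38.0% of 75-base stretches also occur in other annotated genes, among them a pseudogene, so its count may have lost or shared reads. Psmb7 (2365 counts) lies opposite Nek6 (8522 counts), and without knowledge of strand its reads cannot be told apart from those of Nek6, here and in the ratio to Psmb10.

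**Figure D3:**
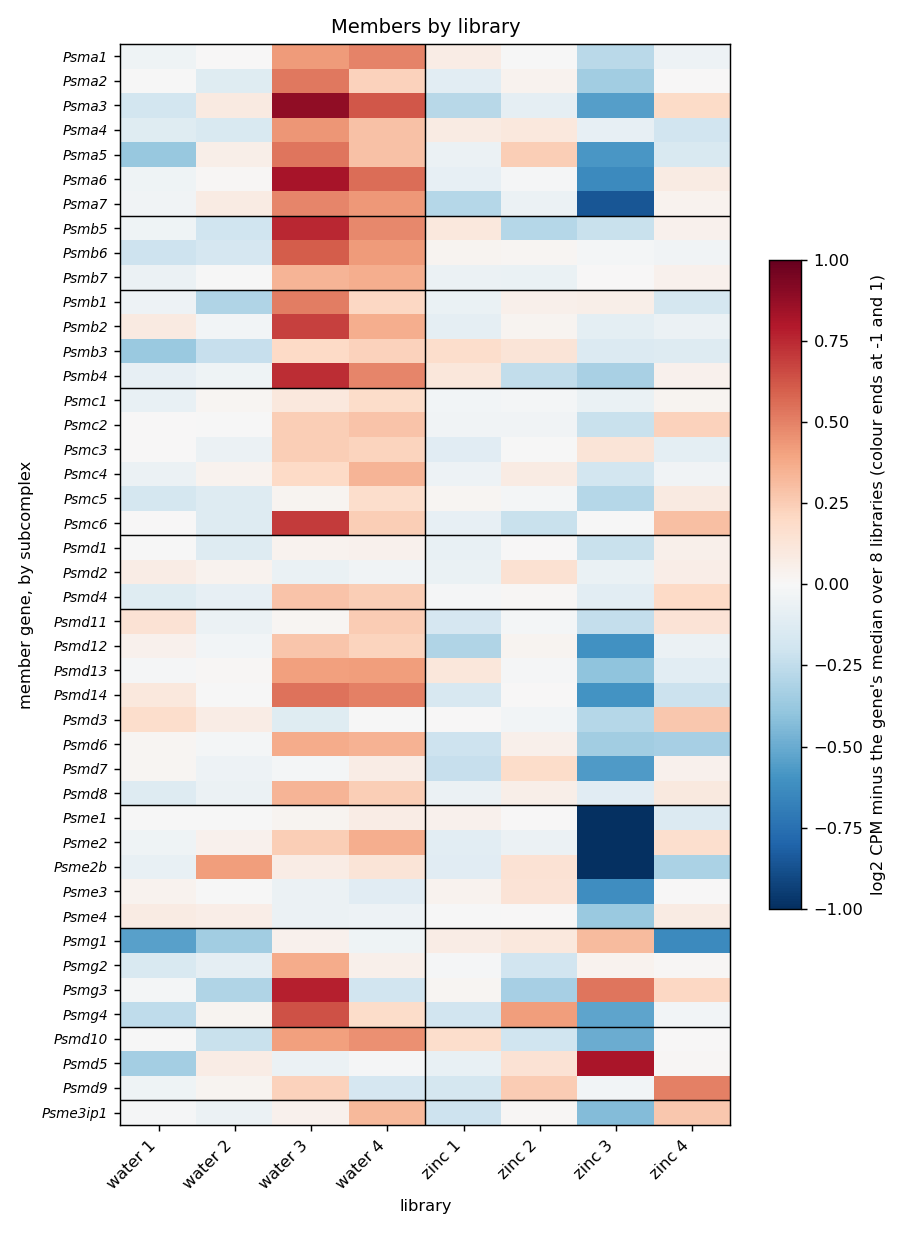
Log2 CPM of the 44 tested members (rows, by subcomplex) in each library (columns), as the difference from the gene's median over the 8 libraries, with the colour scale ending at -1 and 1. The core genes at the top are highest in water replicates 3 and 4, and the activators Psme1, Psme2 and Psme2b reach the low end of the scale in zinc replicate 3.

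Core genes are short, and the excess in water replicates 3 and 4 was larger for shorter members. Across the 44 members, Spearman's rho between coding length and the difference of log2 CPM (water replicates 3 and 4 minus 1 and 2) was -0.51, and over 10365 tested genes it was -0.46. These points share the same 4 libraries and are a description only. The 5 longest coding sequences gave differences of -0.13 for Psme4, 0.11 for Psmd1, -0.11 for Psmd2, -0.19 for Psmd3 and 0.10 for Psmd5. Members of like length also differed, since Psme1 (747 bases) stood at 0.06, Psme2 (717 bases) at 0.31 and Psme3 (762 bases) at -0.11, beside 0.74 for Psmb5 (792 bases). A fit with a trend on canonical transcript length for each library gave a core median of -0.26, beside -0.29 without it. With canonical length, rho across the 44 members was -0.36, and no fit used the coding length.

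**Figure D4:**
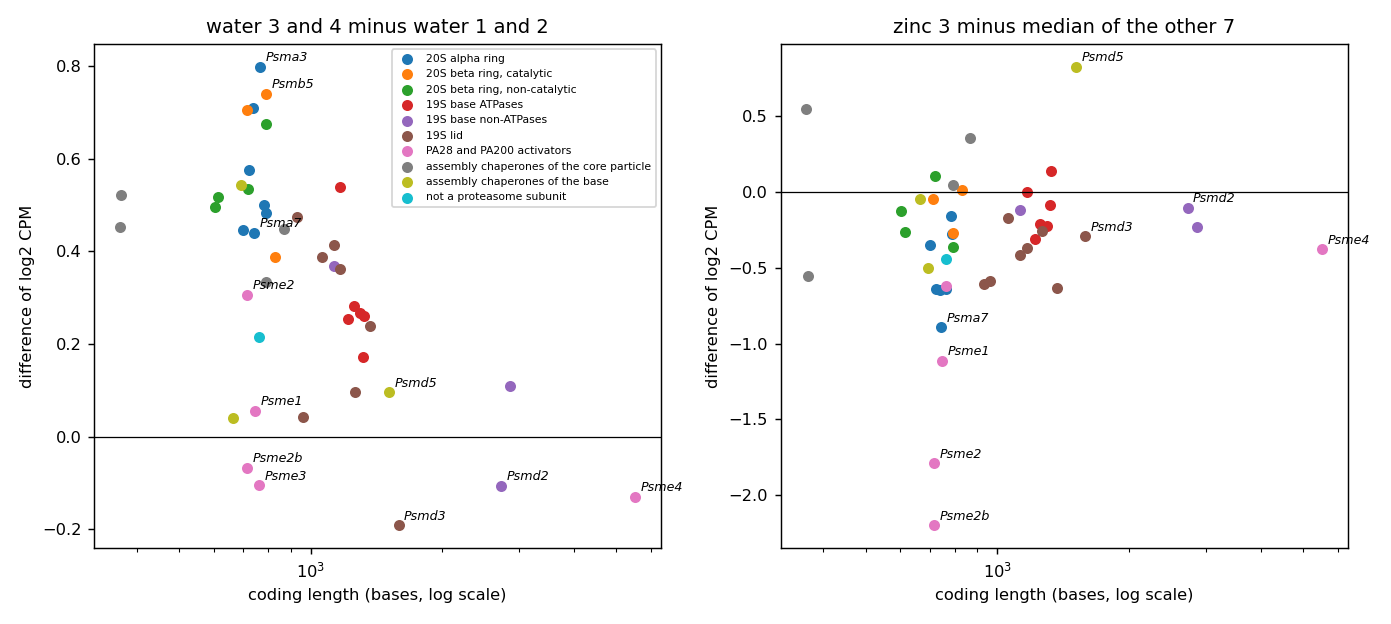
Coding length in bases (log axis) against the difference of log2 CPM for the 44 tested members, coloured by subcomplex. On the left, water replicates 3 and 4 minus 1 and 2, where core genes of around the same length as Psmb5 (0.74) lie high, Psme2 (0.31) lower and Psme1 (0.06), Psme3 (-0.11) and Psme4 (-0.13) near 0; on the right, zinc replicate 3 minus the median of the other 7, where Psme1 (-1.11), Psme2 (-1.79) and Psme2b (-2.20) lie lowest and Psmd5 (0.83) highest.

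The members of smallest p were Psmd14, Psmd6 and Psma7. Psmd14, the deubiquitinase of the lid, gave 24.2, 22.4, 32.9 and 31.9 CPM with water and 20.1, 22.6, 14.8 and 19.4 CPM with zinc. Psmd6, a structural lid subunit, gave 26.7, 25.8, 34.1 and 33.4 CPM with water and 22.7, 27.2, 20.6 and 20.8 CPM with zinc. Psma7, an alpha subunit, gave 47.5, 51.6, 68.4 and 66.0 CPM with water and 40.0, 46.8, 26.9 and 50.1 CPM with zinc. For these genes water replicates 3 and 4 were again highest and zinc replicate 3 lowest, and at least 1 zinc library reached into the range of the water libraries. The log2 fold changes were -0.53 (SE 0.18), -0.39 (SE 0.15) and -0.51 (SE 0.21), each with an adjusted p of 0.485, and without water replicates 3 and 4 they were -0.28, -0.21 and -0.28. The other members with an unadjusted p under 0.05 were the alpha subunits Psma3 and Psma6, with log2 fold changes of -0.57 (SE 0.25) and -0.52 (SE 0.23).

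Those of smallest p in the other direction were assembly chaperones. Psmd5, which holds the base in an unfinished state, gave 6.97, 9.35, 8.49 and 8.80 CPM with water and 8.43, 9.83, 15.7 and 8.95 CPM with zinc. Zinc replicate 3 alone was high, and the log2 fold change was 0.36 (SE 0.22, adjusted p = 0.53) with that library and 0.12 without it. Psmg1, a chaperone of the alpha ring, gave 2.32, 2.68, 3.57 and 3.36 CPM with water and 3.65, 3.73, 4.35 and 2.18 CPM with zinc (log2 fold change 0.23, SE 0.28, adjusted p = 0.74). Psmd9 gave 5.20 to 6.89 CPM with water and 5.15 to 8.39 CPM with zinc (0.16, SE 0.21, adjusted p = 0.77). The value of Psmg1 was 0.12 without zinc replicate 3 or water replicate 1 and 0.40 without zinc replicate 4, and that of Psmd9 was 0.014 without zinc replicate 4, 0.10 without water replicate 4 and 0.25 without zinc replicate 1. Neither set of libraries stood clear of the other for these genes. Psmd9 lies opposite Hpd, a gene with 18674 counts against its 643, and the sources used here do not state whether counting used strand, so reads of the 2 cannot be told apart.

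The interferon-responsive PA28 genes were both lowest in zinc replicate 3. Psme1 gave 45.8, 45.8, 46.9 and 48.4 CPM with water and 47.3, 46.0, 21.2 and 41.8 CPM with zinc. Psme2 gave 68.7, 73.3, 84.2 and 91.5 CPM with water and 66.0, 68.0, 21.1 and 79.8 CPM with zinc. In the other 7 libraries Psme1 varied little and Psme2 was highest in water replicates 3 and 4 as the core genes were. The log2 fold change was -0.26 (SE 0.22, adjusted p = 0.63) for Psme1 and -0.44 (SE 0.33, adjusted p = 0.60) for Psme2, and without zinc replicate 3 it was -0.05 and -0.15. The share of counts held by the 2 genes was 0.012% ± 0.0014 (SD, n = 4) with water and 0.010% ± 0.0038 (SD, n = 4) with zinc, with 0.0046% in zinc replicate 3 and at least 0.0099% in every other library.

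Zinc replicate 3 was the lowest library for 28 of the 44 members, against 30.0% of all genes, with different values between subcomplexes. Relative to the median of the other 7 libraries, log2 CPM in zinc replicate 3 was -1.79 for Psme2, -1.11 for Psme1, -0.62 for Psme3 and -0.38 for Psme4. Psme2b stood at -2.20, from 0.28 CPM there and 1.37 to 2.38 CPM elsewhere. The medians were -0.64 for the alpha ring, -0.39 for the lid and -0.15 for the ATPases, whereas the median of the catalytic subunits was -0.04 and that of all genes 0.03. Within the alpha ring Psma7 stood at -0.89 and Psma4 at -0.16.

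The immunoproteasome genes, outside the rule, were also lowest in zinc replicate 3. Psmb8, which takes the place of Psmb5, gave 28.9, 35.5, 35.1 and 35.7 CPM with water and 28.4, 29.6, 7.16 and 35.5 CPM with zinc. Psmb10, which takes that of Psmb7, gave 76.4, 75.7, 85.7 and 90.8 CPM with water and 71.4, 67.9, 19.1 and 81.5 CPM with zinc. Psmb9, which takes that of Psmb6, gave 11.1, 12.7, 11.9 and 15.0 CPM with water and 10.3, 10.1, 3.93 and 8.87 CPM with zinc, so that its groups did not overlap. None passed the threshold, with log2 fold changes of -0.43 (SE 0.37, adjusted p = 0.63), -0.45 (SE 0.35, adjusted p = 0.60) and -0.61 (SE 0.27, adjusted p = 0.485) for Psmb8, Psmb10 and Psmb9. Without zinc replicate 3 these were -0.11, -0.15 and -0.37.

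The balance of immune and constitutive subunits can be read per coding length. Psmb10 was 3.12 to 3.68 times as abundant as Psmb7 in 7 libraries and 0.88 times in zinc replicate 3. Psmb8 was 1.81 to 3.56 times as abundant as Psmb5 in 7 libraries and 0.73 times in zinc replicate 3. The Psmb5 count may have lost or shared reads, as given above, which would shift this ratio. Psmb9 stayed below Psmb6 in every library, at 0.22 to 0.40 times in 7 libraries and 0.11 times in zinc replicate 3. By these counts, transcripts of 2 of the 3 immune subunits exceeded those of their constitutive counterparts in 7 of 8 libraries, and those of the other did not. As every mouse received TNF, these ratios have no untreated value to stand beside.

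**Figure D5:**
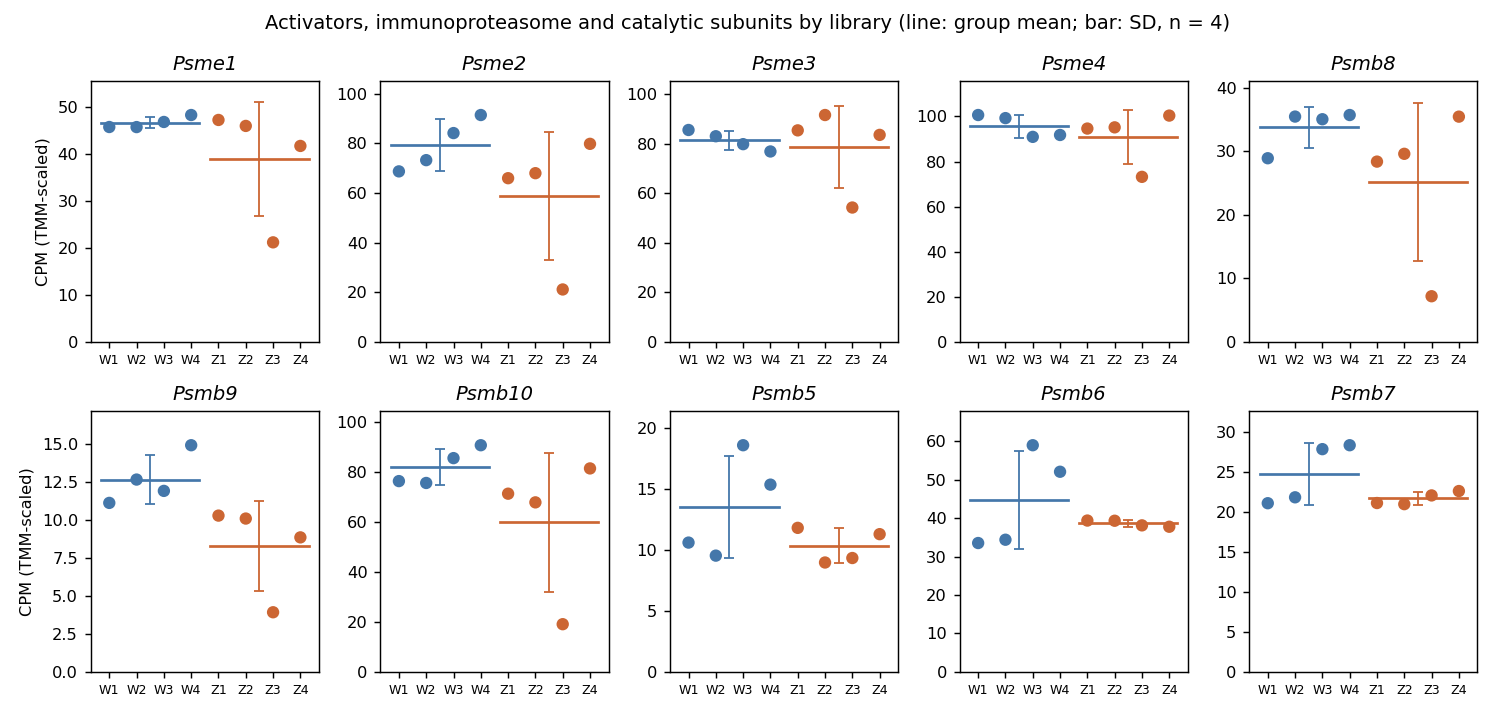
CPM on TMM-scaled library sizes of activators, immunoproteasome genes and constitutive catalytic subunits in water replicates 1 to 4 (W1 to W4) and zinc replicates 1 to 4 (Z1 to Z4), with the group mean as a line and the SD (n = 4) as a bar. Psme1 (21.2), Psme2 (21.1), Psmb8 (7.16), Psmb9 (3.93) and Psmb10 (19.1) are lowest in zinc replicate 3, while Psmb5, Psmb6 and Psmb7 lie there within the range of the other zinc libraries and are highest in water replicates 3 and 4.

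Psme1 and Psme2 are neighbours on chromosome 14 (GRCm39 14:55815190-55822034, plus strand, and 14:55824895-55829173, minus strand) and point towards each other. Psme3 and Psme4 lie on chromosome 11. Psme2b, also on chromosome 11 (11:48836181-48837017, minus strand), is a near copy of Psme2 in 1 exon of 837 bases. Of 75-base stretches, 51.6% of the Psme2 transcript occur in Psme2b and 60.3% of the Psme2b transcript in Psme2, so reads could be split between them, and with 168 counts in all against 7005 the Psme2b values may come from Psme2. Psme2 also lies opposite Rnf31, and reads of the 2 cannot be told apart without strand.

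Promoter windows, from 250 bases before to 50 after each RefSeq start (GRCm38.p6), were at hand for 39 of the 47 members. The 150 bases before the start are shown for the activators because Psme1 and Psme2 were far lower in zinc replicate 3 while Psme4 differed least. Capitals mark the GC box (GGGCGG), the ETS site (CCGGAAG), the CCAAT box (CCAAT) and the antioxidant response element (TGACNNNGC) on either strand. Psme2 has 2 annotated starts, and the outer is shown.
Psme1 (chr14:55578344-55578493, plus strand): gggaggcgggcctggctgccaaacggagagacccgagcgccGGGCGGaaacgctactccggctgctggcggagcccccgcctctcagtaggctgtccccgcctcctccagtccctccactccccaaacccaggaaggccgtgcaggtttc
Psme2 (chr14:55591102-55591251, minus strand): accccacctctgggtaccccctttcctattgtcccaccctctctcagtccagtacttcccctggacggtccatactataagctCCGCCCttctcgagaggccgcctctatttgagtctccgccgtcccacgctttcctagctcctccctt
Psme3 (chr11:101316063-101316212, plus strand): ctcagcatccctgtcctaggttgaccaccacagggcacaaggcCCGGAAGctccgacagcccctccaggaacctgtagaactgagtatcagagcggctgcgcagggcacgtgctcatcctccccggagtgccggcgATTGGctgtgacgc
Psme4 (chr11:30771625-30771774, plus strand): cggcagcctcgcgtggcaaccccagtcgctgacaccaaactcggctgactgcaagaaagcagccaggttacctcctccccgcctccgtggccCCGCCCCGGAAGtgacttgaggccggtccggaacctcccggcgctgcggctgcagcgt
In these stretches Psme1 and Psme2 held 1 GC box each, Psme3 an ETS site and a CCAAT box, and Psme4 a GC box that overlaps an ETS site.

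The interferon-stimulated response element (GAAA, any 2 bases and GAAA again, on either strand) was found in the windows of 5 of 39 members, against 3.99% of 27025 symbols and 3.56% of the 8378 with a tested gene. The sites are shown in 30 bases because Psme1 alone of these genes belongs to the interferon-responsive pair.
Psme1 (chr14:55578493-55578522, plus strand): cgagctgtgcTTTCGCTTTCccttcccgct
Psmb3 (chr11:97703261-97703290, plus strand): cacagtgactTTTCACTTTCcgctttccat
Psmd4 (chr3:95042675-95042704, minus strand): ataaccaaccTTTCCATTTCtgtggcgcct
Psmd9 (chr5:123228021-123228050, plus strand): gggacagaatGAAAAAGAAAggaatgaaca
Psmg4 (chr13:34162969-34162998, plus strand): gcgcgcatctGAAAGTGAAAgagcgttccg
In zinc replicate 3, where interferon targets were low, log2 CPM relative to the other 7 libraries was -1.11 for Psme1, -0.27 for Psmb3, -0.12 for Psmd4, -0.05 for Psmd9 and -0.56 for Psmg4. No such site was found in the windows of Psme2, Psmb8, Psmb9 or Psmb10, which says only that these letters are not in them.

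The antioxidant response element, which Nfe2l1 can bind when the proteasome is short, was found for 6 of 39 members, against 14.0% of all symbols and 17.2% of those tested. The sites of the catalytic subunits among them are shown.
Psmb5 (chr14:54618023-54618052, minus strand): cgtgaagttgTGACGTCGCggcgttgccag
Psmb6 (chr11:70525338-70525367, plus strand): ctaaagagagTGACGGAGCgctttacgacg
The others were Psmc6, Psmd9, Psmd12 and Psme4. The ETS site was found for 16 of 39 members, against 9.93% of all symbols and 21.7% of those tested. The NF-kB site was found for 6, namely Psma6, Psma7, Psmd11, Psmd12, Psmd13 and Psme4, against 9.55% and 12.4%. These matches are descriptions of sequence, and none was tested against the levels.

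Proteasome partners outside the rule did not pass the threshold either. All 20 listed partners were tested, and 14 had a lower estimate with zinc (49.2% of all genes). The median log2 fold change of the 20 was -0.05. For 1 of them the unadjusted p was under 0.05 (10.2% of all genes), and none passed. Without zinc replicate 3, 11 of the 20 were lower (49.4% of all genes) and the median was -0.02. Pomp, which matures the core, gave 23.9, 20.7, 27.2 and 28.5 CPM with water and 21.3, 21.1, 16.2 and 21.9 CPM with zinc (log2 fold change -0.32, SE 0.15, adjusted p = 0.49, and -0.16 without water replicates 3 and 4). Psmf1, an inhibitor of the core, gave 17.5 to 22.9 CPM with water and 18.5 to 22.3 CPM with zinc (0.05, SE 0.14, adjusted p = 0.89). Nfe2l1, the transcription factor of proteasome genes, gave 104, 120, 68.9 and 93.7 CPM with water and 85.6, 104, 59.0 and 128 CPM with zinc (-0.04, SE 0.25, adjusted p = 0.96). For each of these the groups overlapped, and Nfe2l1 was lowest in zinc replicate 3 and water replicate 3.

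Of 8 ubiquitin and ubiquitin-segregase genes 7 were tested, and 6 had a lower estimate (49.2% of all genes), with a median of -0.10. None had an unadjusted p under 0.05 (10.2% of all genes). Without zinc replicate 3, 5 of the 7 were lower (49.4% of all genes) and the median was -0.05. Beside the 49.2% of all genes with a lower estimate, 21 of 22 tested interferon targets had one, with a median of -0.73. Of the 22, 7 had an unadjusted p under 0.05 (10.2% of all genes) and none an adjusted p under 0.05. Without zinc replicate 3, where 49.4% of all genes were lower, 20 of 23 then tested were lower and the median was -0.40. Of 20 tested TNF and NF-kB targets all had a lower estimate, with a median of -0.47. Of these 20, 3 had an unadjusted p under 0.05 (10.2% of all genes) and none an adjusted p under 0.05. Without zinc replicate 3 only 13 of the 20 were lower and the median was -0.13. In zinc replicate 3 the median difference from the other 7 libraries was -2.0 for the interferon targets, -3.87 for the TNF and NF-kB targets and -1.99 for the immunoproteasome, against -0.27 for the constitutive members.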

How the data were processed

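RNA of sorted PCs was sequenced after a strand-specific poly(A) preparation. The deposited table holds raw read counts per Ensembl gene. The notes of the submitters name STAR 2.7.10a, FastQC 0.12.0, DESeq2 and mm39, and the counter, its strand setting and its rule for reads with several matches are not given in the sources used here. Identifiers were matched to GENCODE M39 (54749 of 55414), with unmatched genes holding 0.00443% of counts. Lengths came from that annotation, which may be newer than the one used for counting.

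Zinc and water were compared with edgeR 4.0.16 under R 4.3.3 (quasi-likelihood test, TMM factors, default filter) and Benjamini-Hochberg adjustment over 10707 genes. CPM are on TMM-scaled library sizes, and log2 CPM use a prior count of 2. A count of 0 allows up to 3 counts, or 0.179 to 0.369 CPM depending on the library, for counting error only. SE is the absolute log2 fold change divided by the root of F. No 2 libraries agreed within sampling noise (smallest chi-square per degree of freedom 6.05).

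The members and lists were chosen with earlier results of these data known. Given with statistics were Psme1, Psme2, Psmb5, Psmb6 and Psmb7, the 3 members of smallest p in each direction, and Psmb8, Psmb9, Psmb10, Pomp, Psmf1 and Nfe2l1. Levels were given for the highest and lowest tested member of each subcomplex. Other genes were named after their values were seen. Alternatives were other scaling factors, filters (the stricter asked 1 CPM in 4 libraries and 100 counts), DESeq2 1.42.0, limma-voom (limma 3.58.1), a replicate block, a length offset, other lengths and denominators, and libraries left out. The steps were tested on simulated counts.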

Additional observations from a re-analysis of the deposited data

Results flagged for a closer look

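In 104 groups of 4 libraries the highest and lowest value were compared with the rest by Dixon's test, which flags about 1 in 20 groups by chance, and 2 groups stood out. Psmb8 in water replicate 1 was 28.9 CPM, against 35.1 to 35.7 CPM in the other 3 water libraries. Pomp in zinc replicate 3 was 16.2 CPM, against 21.1 to 21.9 CPM in the other 3 zinc libraries. No tested member was among them, and the low Psme1 and Psme2 values of zinc replicate 3 did not reach the limit of the test.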

How the results depend on the processing

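No member passed the adjusted threshold under any alternative run, and over all genes only DESeq2 called any (4). Members with an unadjusted p under 0.05 numbered 5, but 0 with limma-voom, 3 with the length offset, 0 without water replicates 3 and 4, 1 without those and zinc replicate 3 (chosen after seeing the data), and 1 to 8 with 1 library left out (8 without water replicate 1 or 2, 1 without water replicate 3, water replicate 4 or zinc replicate 1, and 3 without zinc replicate 3). The share of all genes was given for the main fit only, so counts under other settings were not set beside all genes. Same-numbered libraries did not deviate together (correlations -0.03 to 0.03). This gave no sign of pairing by number, but with 4 libraries per group and zinc replicate 3 far apart it cannot exclude one. With a replicate block the count of members with an unadjusted p under 0.05 was 2. With 1 library left out, log2 changes ran from -0.24 to -0.11 for the members' median, -0.36 to -0.047 for Psme1, -0.62 to -0.15 for Psme2, -0.52 to -0.20 for Psmb5, -0.33 to -0.053 for Psmb6, -0.26 to -0.12 for Psmb7, -0.0059 to 0.13 for Psmf1 and -0.22 to 0.14 for Nfe2l1. Without the 3 libraries named, the median was 0.042, Psme2 0.0086, Psmb5 0.086, Psmb6 0.20 and Psmb7 0.0098. Without water replicates 3 and 4 alone, Psmb5 was at 0.030, Psmb6 at 0.18 and Psmb7 at 0.0056. Psmf1 was at -0.0059 without water replicate 3, and Nfe2l1 at 0.08 without water replicate 2, 0.0097 without zinc replicate 1 and 0.14 without zinc replicate 3. As percent of protein-coding counts without Defa, Lyz1 and Itln1, the members' share differed by -0.027 (zinc minus water; -0.0047 of all counts) and that of Psme1 and Psme2 by -0.0058 (-0.0018). The causes were not tested.

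Levels per length moved with the length used, by construction. With all exons joined the medians were 7.17 (alpha ring), 5.94 and 4.29 (catalytic and other beta subunits), 6.44 and 4.91 (ATPases and other base subunits), 6.70 (lid), 0.81 and 0.76 (chaperones of core and base). With the median transcript length they were 15.8 for the other beta subunits and 3.76 for the base chaperones, and with the coding length 20.7, 13.3, 24.5, 12.0 (other base subunits), 28.3 (activators) and 4.48 (base chaperones). The lid stood at 16.5 without the 3 libraries named and at 12.6 to 14.5 with 1 library left out.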
